A study of Mus musculus with 47 samples.

Results

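The genes described here encode 10 acute phase and milk defence proteins: the orosomucoids Orm1 and Orm2, the serum amyloid A genes Saa1, Saa2 and Saa3, the iron-handling proteins Lcn2 and Ltf, the lipopolysaccharide-binding proteins Cd14 and Lbp, and the immunoglobulin transporter Pigr. They are 10 of 17078 genes in the deposited table. They were picked by symbol, all 10 were found, and all 10 had passed the low-value filter that the authors applied. Because the genes were named with results of these libraries already known, the number of them that changed is a description and not evidence about gene sets.

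RNA-seq had been done on mammary epithelial cells of FVB/N mice, sorted by flow cytometry as luminal (CD24+ CD29lo) or basal (CD24+ CD29hi). Antibodies to Cd11b, Cd45, Ly-6G/Ly-6C, Ter-119, Cd31 and Cd140a had served to gate out other lineages, which are mainly macrophages and other blood cells, endothelial cells and fibroblasts. The paper lists the Cd140a antigen as human and the other lineage antigens as mouse. How well the Cd140a antibody removed mouse cells was not tested. The 8 time points were 10 weeks (W10) and 4 months (M4) of age in females that had never been pregnant, days 3.5 and 14.5 of pregnancy (P3.5 and P14.5), days 3 and 10 of lactation (L3 and L10), 2 days of involution after pups were taken away at lactation day 10 (Id2), and 4 weeks of involution (Iw4). Each sort pooled glands of several mice and gave a luminal and a basal library, so a replicate is a pool and not a mouse. Groups had 3 libraries, except basal P14.5 and basal L10 with 2, making 46 libraries (24 luminal, 22 basal) of 4398806 to 20023054 recovered reads on genes. Levels are in CPM, reads scaled by the authors to normalised library size, and 3 reads, taken as the smallest measurable level, stand for 0.170 to 1.05 CPM depending on the library. The normalised size is not the read total, so CPM are not shares of the reads. It was 14272400 beside 11438112 recovered reads in luminal W10 replicate 5, and 2851640 beside 8295520 in luminal L3 replicate 6. RNA was amplified in batches. W10 and Id2 shared one batch, L3 and L10 another, and P3.5 and P14.5 another, while M4 and Iw4 were both spread over the remaining batches. For W10 against P3.5, P14.5 against L3, L10 against Id2 and Id2 against Iw4, batch and time point therefore cannot be told apart. The labelled sequencing lane also differed between the time points compared, except between M4 and Iw4, so lane and time point cannot be told apart in the other comparisons.

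Acute phase proteins are secreted mostly by the liver when interleukin-6 type cytokines and interleukin-1 act on it through STAT3, C/EBP and NF-kB factors, and several epithelia make them too. Milk carries antimicrobial proteins that protect both the gland and the pup. Some of these withhold iron from bacteria, some bind bacterial lipopolysaccharide, and the polymeric immunoglobulin receptor moves antibodies into milk. When suckling stops, luminal cells switch from secretion to cell death and clearance, and a rise of acute phase genes is a known feature of that first phase in the mouse.

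The sorted fractions were checked against marker genes. Luminal Id2 libraries held 7176, 5536 and 6300.5 CPM of 8 luminal markers (Krt8, Krt18, Elf5 and others), and their basal markers summed to 129, 236 and 177 CPM. The libraries labelled basal Id2 did not all show basal markers. The 8 basal markers summed to 885 CPM in replicate 2, 14436 CPM in replicate 4 and 887 CPM in replicate 6, against 18488 to 26759 CPM in basal W10 and 49286 and 55672 CPM in basal L10. Replicate 2 held 16931 CPM of endothelial markers, led by Vwf, and replicate 6 held 72384 CPM of fibroblast markers, led by Col1a1. Only replicate 4 was near the other basal groups in basal markers, and it too held 10243 CPM of fibroblast markers. Pericyte markers summed to 2624 to 10770 CPM in basal Id2, 1547 to 7380 CPM in basal L3 and 8683 and 15512 CPM in basal L10. In basal W10 they summed to 95.4 to 122 CPM. Adipocyte markers summed to 327 to 4186 CPM in basal Id2, 1481 and 1554 CPM in basal L10 and 140 to 196 CPM in basal W10. The part of such cells was not tested. Counts that rest on basal Id2 are therefore given with all 3 libraries, and some log2 differences also with replicate 4 alone.

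**Figure D1:**
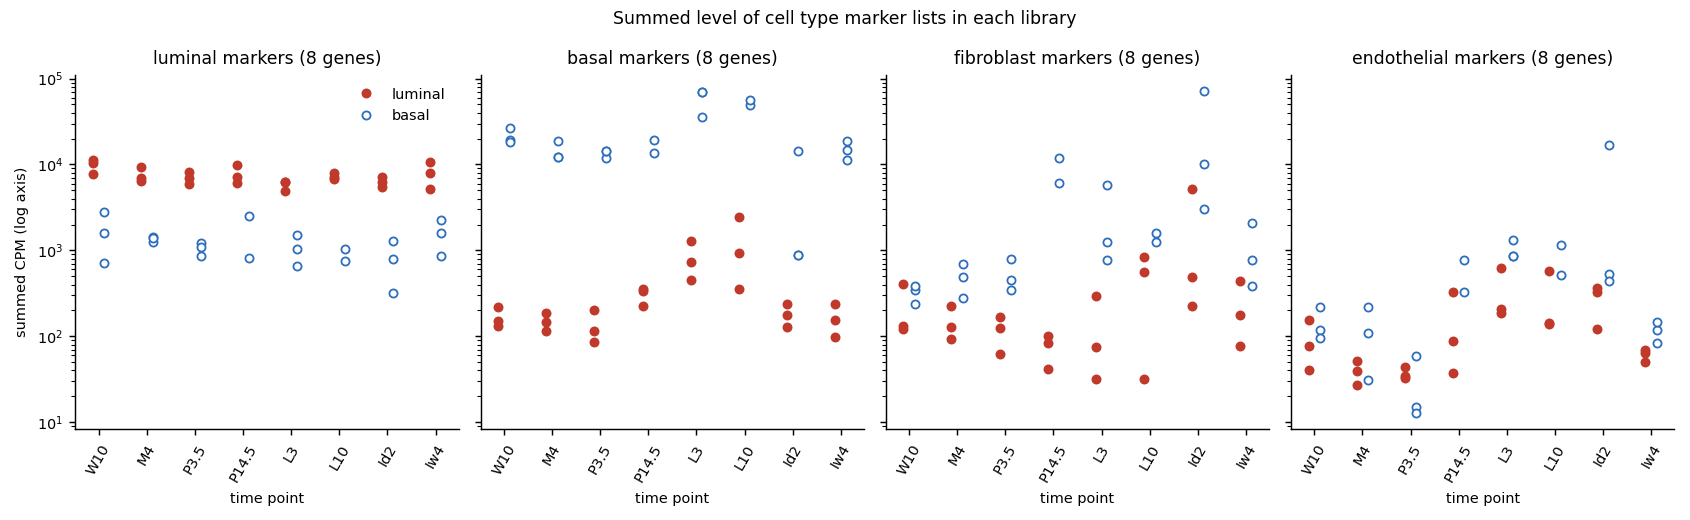
Summed level (CPM, log axis) of luminal, basal, fibroblast and endothelial marker genes in every library, by time point, with a point for each luminal and each basal library. The basal markers of basal Id2 replicates 2 and 6 (885 and 887 CPM) lie far below those of every other basal library.

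Immune cells that make some of these proteins were looked for in the luminal fraction. Of 10 neutrophil markers the table holds 1, S100a8, which was at 14.2, 22.6 and 15.1 CPM in luminal Id2, 10.5, 12.3 and 27.6 CPM in luminal L10, and 2.42, 4.27 and 4.11 CPM in luminal W10. The macrophage markers (led by Cd68, Lyz2 and Csf1r) summed to 60.1, 203 and 249.8 CPM in luminal Id2 to 64.9, 155 and 80.2 CPM in luminal L10 and to 41.4, 30.3 and 21.9 CPM in luminal W10. The 10 macrophage markers were all in the table, and none was at 0 in a luminal Id2 library. Fibroblast markers summed to 225, 489 and 5243 CPM in luminal Id2, so replicate 6 stood apart. The part of such cells in the results was not tested. In a sorted bulk library, more cells of one kind and more RNA per cell cannot be told apart.

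The genes spanned a wide range of levels. Lcn2, Ltf, Cd14 and Lbp were at 1 CPM or more in all 46 libraries and Pigr in 43. Saa1 reached 1 CPM in 38 libraries, Saa2 in 33, Orm2 in 25, Saa3 in 21 and Orm1 in 18. Per kilobase of the longest coding transcript, the median level in luminal Id2 was 18234 CPM per kb for Lcn2, 7026 for Ltf, 1600.0 for Cd14, 1202 for Lbp and 692 for Pigr. On the same scale it was 349 CPM per kb for Saa1, 268 for Orm1, 185 for Saa2, 162 for Orm2 and 17.4 for Saa3.

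**Figure D2:**
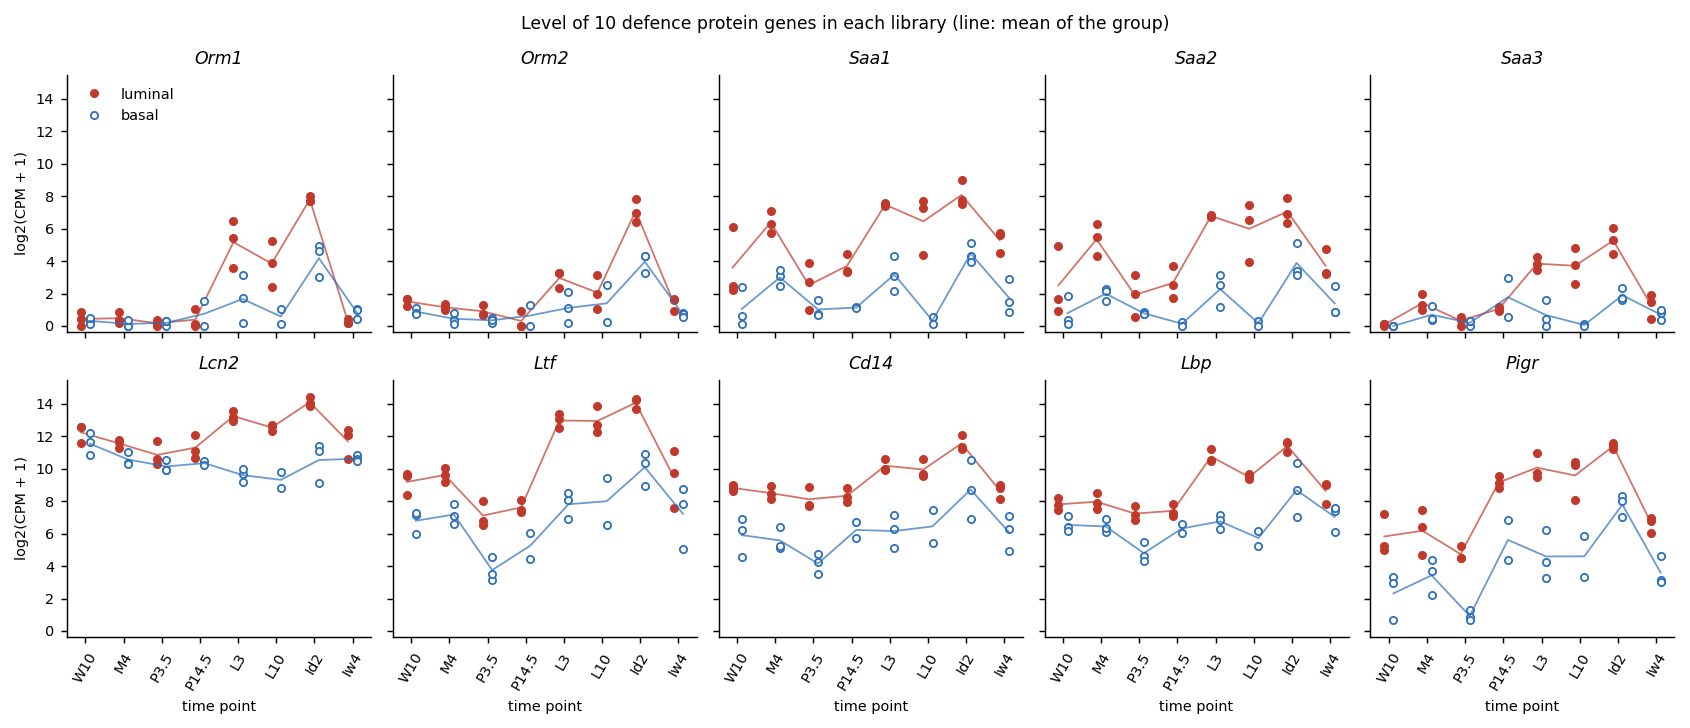
Level, as log2(CPM + 1), of each of the 10 genes in every luminal (filled) and basal (open) library at the 8 time points, a point per library and a line through the group means. The 3 luminal Id2 points lie above all other luminal points for Orm1, Orm2, Lcn2, Cd14 and Pigr.

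The orosomucoids Orm1 (ENSMUSG00000039196, GRCm38 chr4:63344560-63348163, plus strand) and Orm2 (ENSMUSG00000061540, chr4:63362449-63365878, plus strand) are neighbouring genes for plasma glycoproteins that bind small molecules. Luminal Orm1 was at 0 to 1.08 CPM in the 15 luminal libraries of W10, M4, pregnancy and Iw4. It was at 41.7, 11.1 and 88.7 CPM at L3, between 4.39 and 36.0 CPM at L10, and at 253, 207 and 208 CPM at Id2. Luminal Orm2 stayed between 0 and 2.22 CPM in the same 15 libraries and between 1.06 and 8.77 CPM in lactation. At Id2 it was at 231, 126 and 84.2 CPM. Both genes thus had their 3 highest luminal values at Id2, with no overlap with any other luminal library. The transcripts are alike, since 20.4% of the 50-base windows of either occur identically in the other, and how reads from such windows were shared was not tested. The ratio of Orm1 to Orm2 was 10.5, 1.27 and 10.1 in luminal L3, where both had at least 10 reads, and 1.10, 1.64 and 2.47 in luminal Id2.

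The serum amyloid A genes lie together on chromosome 7 and encode proteins carried on high density lipoprotein during inflammation: Saa1 (ENSMUSG00000074115, chr7:46740497-46742980, minus strand), Saa2 (ENSMUSG00000057465, chr7:46751790-46754313, plus strand) and Saa3 (ENSMUSG00000040026, chr7:46711998-46715700, minus strand), the form made mainly outside the liver. Saa1 was at 68.1, 4.55 and 3.61 CPM in luminal W10, so the never-pregnant libraries differed among themselves. It was at 173, 170.5 and 189.7 CPM at L3, at 151, 20.2 and 207 CPM at L10, and at 506, 181 and 212 CPM at Id2. Saa2 was lower than Saa1 in each L3, L10 and Id2 library, at 109, 105 and 113 CPM at L3, 92.1, 14.4 and 178 CPM at L10 and 233, 81.2 and 121 CPM at Id2. Replicate 5 was the lowest of L10 for both genes. The luminal L10 and Id2 values overlapped for Saa1 and Saa2. Saa3 was at 17.9, 9.89 and 13.3 CPM at L3, at 26.7, 5.07 and 12.3 CPM at L10 and at 65.2, 38.2 and 21.0 CPM at Id2, against 0 to 2.92 CPM in the other luminal groups. Of the 50-base windows of the longest coding transcript of Saa1, 13.2% occur in some coding transcript of Saa2 and 1.61% in one of Saa3. None of those of the longest Saa3 transcript (0%) occur in Saa1 or Saa2, so the Saa3 transcript that shares with Saa1 is another one. The ratio of Saa1 to Saa2 stayed between 1.16 and 2.22 in the luminal L3, L10 and Id2 libraries.

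The next genes encode iron-handling proteins. Lcn2 (ENSMUSG00000026822, chr2:32384633-32388252, minus strand) encodes lipocalin-2, which captures bacterial iron carriers. It was at 3077, 6067 and 6081 CPM in luminal W10 and at 5085, 6287 and 6589 CPM at L10. At Id2 it was at 21508, 16684 and 15129 CPM, above every other luminal library. Ltf (ENSMUSG00000032496, chr9:111019271-111042767, plus strand) encodes lactoferrin, the iron-binding protein of milk. It was at 266, 173 and 161 CPM in luminal P14.5, then at 10406, 8649 and 5773 CPM at L3, 4889, 14856 and 6746 CPM at L10, and 19273, 19819 and 13279.6 CPM at Id2. Lactation and involution values of Ltf overlapped, because L10 replicate 5 was above the lowest Id2 library. Lcn2 never fell below 1239.5 CPM in a luminal library, whereas Ltf was between 91.7 and 266 CPM in pregnancy.

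Cd14 (ENSMUSG00000051439), a surface co-receptor for lipopolysaccharide, and Lbp (ENSMUSG00000016024, chr2:158306493-158332852, plus strand), the soluble protein that passes lipopolysaccharide to it, had the same order of group medians from P14.5 to Id2. Luminal Cd14 was at 442, 244 and 309 CPM at P14.5, 1582, 1013 and 986 CPM at L3, 754, 834 and 1534 CPM at L10 and 4338, 2626 and 2408 CPM at Id2. Luminal Lbp was at 228, 138 and 151 CPM at P14.5, 2417, 1494 and 1396 CPM at L3, 650.4, 814 and 704 CPM at L10 and 3034, 3165 and 2063 CPM at Id2. Id2 held the 3 highest luminal values of Cd14, and for Lbp 1 L3 library lay within the Id2 range. The receptor that signals with Cd14 was present at much lower CPM. Tlr4 was at 33.7 to 60.8 CPM in luminal L10 and at 98.4 to 122 CPM in luminal Id2, a log2 difference of 1.23 that was not called (limma, adjusted p = 0.044). Its partner Ly96 was at 6.02 to 11.9 CPM and at 15.6 to 24.8 CPM, a log2 difference of 1.21 (limma, adjusted p = 0.1).

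Pigr (ENSMUSG00000026417, chr1:130826684-130852249, plus strand) encodes the receptor that carries polymeric immunoglobulin A across the luminal cell into milk. Its luminal level was 21.5, 36.4 and 21.4 CPM at P3.5 and 762, 442 and 544 CPM at P14.5. It was at 868, 719 and 1972 CPM at L3, 268, 1221 and 1375 CPM at L10 and 3132, 2330.1 and 2662 CPM at Id2, and at 64.0 to 126 CPM at Iw4. All 3 P14.5 values thus lay above every W10, M4 and P3.5 value, the highest of which was 176 CPM.

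Promoter windows are shown because the genes move together across the cycle and C/EBP, STAT and NF-kB factors are the textbook regulators of this class. RefSeq (GRCm38.p6) start sites were matched for 7 of the 10 genes. The 250 bases before the start, read 5′ to 3′ on the gene's strand, follow for the 6 that hold the C/EBP letters TTGCNNAA on either strand, at chr4:63362199-63362448 for Orm2, chr7:46742981-46743230 for Saa1, chr7:46751583-46751832 for Saa2, chr7:46715677-46715926 for Saa3, chr2:32387740-32387989 for Lcn2 and chr9:111019042-111019291 for Ltf. Capitals mark those letters, and in Orm2 also the TATAAA box.
Orm2: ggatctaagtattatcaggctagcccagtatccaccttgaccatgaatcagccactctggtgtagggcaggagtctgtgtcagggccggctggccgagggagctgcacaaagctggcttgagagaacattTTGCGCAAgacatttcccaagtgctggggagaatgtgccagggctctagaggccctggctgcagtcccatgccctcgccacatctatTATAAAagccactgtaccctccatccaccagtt
Saa1: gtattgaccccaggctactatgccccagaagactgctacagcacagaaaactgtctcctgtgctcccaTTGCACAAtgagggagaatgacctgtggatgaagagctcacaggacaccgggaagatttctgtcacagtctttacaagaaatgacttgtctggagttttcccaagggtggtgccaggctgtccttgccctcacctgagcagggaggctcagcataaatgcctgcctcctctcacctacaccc
Saa2: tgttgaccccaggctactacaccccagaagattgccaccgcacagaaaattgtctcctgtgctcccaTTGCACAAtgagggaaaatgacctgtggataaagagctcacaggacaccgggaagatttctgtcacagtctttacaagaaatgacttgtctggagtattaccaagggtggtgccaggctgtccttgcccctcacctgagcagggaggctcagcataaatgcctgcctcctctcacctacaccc
Saa3: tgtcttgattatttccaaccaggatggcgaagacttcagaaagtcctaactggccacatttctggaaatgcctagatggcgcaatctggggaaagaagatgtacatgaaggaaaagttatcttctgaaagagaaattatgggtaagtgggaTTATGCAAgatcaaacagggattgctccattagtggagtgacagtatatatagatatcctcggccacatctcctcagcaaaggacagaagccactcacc
Lcn2: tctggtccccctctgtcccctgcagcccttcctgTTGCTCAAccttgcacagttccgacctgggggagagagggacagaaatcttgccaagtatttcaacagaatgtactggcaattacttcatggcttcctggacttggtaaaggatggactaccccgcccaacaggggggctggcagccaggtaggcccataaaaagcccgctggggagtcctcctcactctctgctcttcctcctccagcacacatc
Ltf: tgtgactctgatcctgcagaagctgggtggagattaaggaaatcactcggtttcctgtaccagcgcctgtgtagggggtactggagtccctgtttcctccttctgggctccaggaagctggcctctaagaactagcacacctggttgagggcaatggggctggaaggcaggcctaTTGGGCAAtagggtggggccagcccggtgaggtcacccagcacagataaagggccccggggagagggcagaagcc

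The match begins 120 bases before the start in Orm2 (TTGCGCAA), 182 in Saa1 and 183 in Saa2 (TTGCACAA in both), 99 in Saa3 (TTATGCAA), 216 in Lcn2 (TTGCTCAA) and 75 in Ltf (TTGGGCAA). The Saa1 and Saa2 windows are 95.2% identical, so their matches are not independent, whereas Saa1 and Saa3 share 58.0% of positions. Of all 32851 RefSeq windows of this length, 9.56% hold the C/EBP letters. The STAT letters TTCNNNGAA, held by 7.02% of all windows, and the NF-kB consensus, held by 3.90%, were in none of the 7. The Pigr window (chr1:130826434-130826683) holds none of the searched letters. A match describes letters in this window and is no measurement of binding.

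The first step at which any of the genes was called in luminal cells lay within pregnancy. From W10 to P3.5 none of the 10 was called in luminal cells by limma (2 at an unadjusted p under 0.05) or by edgeR, where 1.82% of all genes were called in either direction. Those 2 were lower at P3.5: Ltf by -2.07 (limma, adjusted p = 0.1) and Lcn2 by -1.39 (limma, adjusted p = 0.075). Luminal Ltf was at 330 to 802 CPM at W10 and at 91.7 to 259 CPM at P3.5. Between P3.5 and P14.5 Pigr rose by 4.42 ± 0.79 on the log2 scale (SE, limma, adjusted p = 0.00054), and the other 9 differed by -0.60 to 1.19 and were not called. A call means a fold of at least 2 at a false discovery rate under 0.01 over all 17078 genes, and fold changes are on the log2(CPM + 1) scale, which understates those of low genes. Before lactation luminal Orm1 reached 3 reads in at most 2 of 3 libraries of a group, and Orm2 in 1 of 3 at P14.5, so the folds from those groups depend on the added 1 CPM. At this step 0.814% of all genes were called higher. Both time points shared an amplification batch. In basal cells Pigr was also the 1 gene called at this step, at 0.792, 1.42 and 0.577 CPM in P3.5 and 19.6 and 115 CPM in P14.5 (log2 difference 4.69, limma, adjusted p = 0.00066), where 2.46% of genes were called higher. That call was lost without basal P14.5 replicate 5 (limma, adjusted p = 0.05). Also called higher in basal cells at this step were 6 of 8 fibroblast, 5 of 6 pericyte, 3 of 8 endothelial and 2 of 6 adipocyte markers, 4 of 8 milk protein genes and Elf5. Csn2 stood at 35.3% of the luminal level in 1 of the basal P14.5 libraries, and the part of such RNA in the Pigr value was not tested.

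From P14.5 to L3, 8 of the 10 genes rose in luminal cells, where 3.19% of all genes did. Ltf rose by 5.36 ± 0.75 (SE, log2, limma, adjusted p = 7.1e-06) and Orm1 by 4.77 ± 0.60 (limma, adjusted p = 1.4e-06). Saa2 rose by 4.13, Saa1 by 3.77, Lbp by 3.34, Saa3 by 2.79, Orm2 by 2.66 and Lcn2 by 1.94, with limma adjusted p-values from 1.1e-05 to 0.0043. The Lcn2 call was lost in 4 of the 6 fits without 1 of the libraries (limma, adjusted p up to 0.04). The L3 values lay above all P14.5 values for these 8 and for Cd14, 9 of 10 genes beside 13.1% of all genes. Cd14 was 1.85 higher but not called (limma, adjusted p = 0.045), and Pigr, already high, differed by 0.91 (limma, adjusted p = 0.5). At the same step 3 of 8 basal markers were called higher in luminal cells (Krt5, Trp63 and Myh11, list median 2.15). Their luminal sum was 353, 339.9 and 223 CPM at P14.5 and 727, 1302 and 449 CPM at L3, and the part of such cells was not tested. The median over the 10 was 3.06 on the log2 scale, beside -0.02 over all genes. In basal cells none of the 10 was called at this step by limma (4 at an unadjusted p under 0.05) or by edgeR, where 3.89% of genes were called in either direction.

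Between L3 and L10 none of the 10 was called in either cell type by limma or by edgeR. In each cell type 2 had an unadjusted p under 0.05 (limma). Of all genes 0.381% were called in either direction in luminal and 1.14% in basal cells. The luminal differences were -1.32 to -0.03 with limma, and those of Saa3 (0.10) and Ltf (0.09) were positive with edgeR.

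In the days after weaning the orosomucoids showed the largest luminal differences of the 10. From L10 to Id2 luminal Orm2 rose by 5.03 ± 0.49 (SE, log2, limma, adjusted p = 2e-08), Orm1 by 3.95 ± 0.60 (limma, adjusted p = 3.2e-05) and Lbp by 1.91 ± 0.49 (limma, adjusted p = 0.0079). These were 3 of 10 genes called, where 2.15% of all genes were called higher. At this step the basal markers Krt5 and Krt14 were called lower in luminal cells (2 of 8, list median -1.43), and the 8 summed to 352, 2442 and 937 CPM at L10 and 129, 236 and 177 CPM at Id2. The macrophage and fibroblast lists had median log2 differences of 1.19 and 1.80, and the part of such cells was not tested. The Orm1 call was lost at an added 0.1 CPM (limma, adjusted p = 0.014). The Lbp call was at the limit: with edgeR its adjusted p was 0.011, and leaving out any 1 of the 6 libraries gave 0.014 to 0.039 (limma). The other 7 were 1.06 to 1.81 higher without passing. Among them were Pigr (1.81, limma, adjusted p = 0.14), Saa1 (1.63, limma, adjusted p = 0.19), Cd14 (1.61, limma, adjusted p = 0.095), Lcn2 (1.56, limma, adjusted p = 0.025) and Ltf (1.12, limma, adjusted p = 0.37). Without 1 library Saa2 ran from 0.04 to 1.81, Saa1 from 0.60 to 2.25 and Pigr from 1.05 to 2.23 (limma). Saa3 ran from 1.00 to 2.10 and was called in 1 of those 6 fits, and edgeR gave 0.61 for Saa2. All 3 Id2 libraries were above all 3 L10 libraries for Orm1, Orm2, Lcn2, Cd14, Lbp and Pigr, 6 of 10 genes beside 12.2% of all genes, and the groups overlapped for Saa1, Saa2, Saa3 and Ltf. With the spread estimated from the 2 groups compared only, limma called 0 of the 17078 genes at this step, and 6 of the 10 had an unadjusted p under 0.05.

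**Figure D3:**
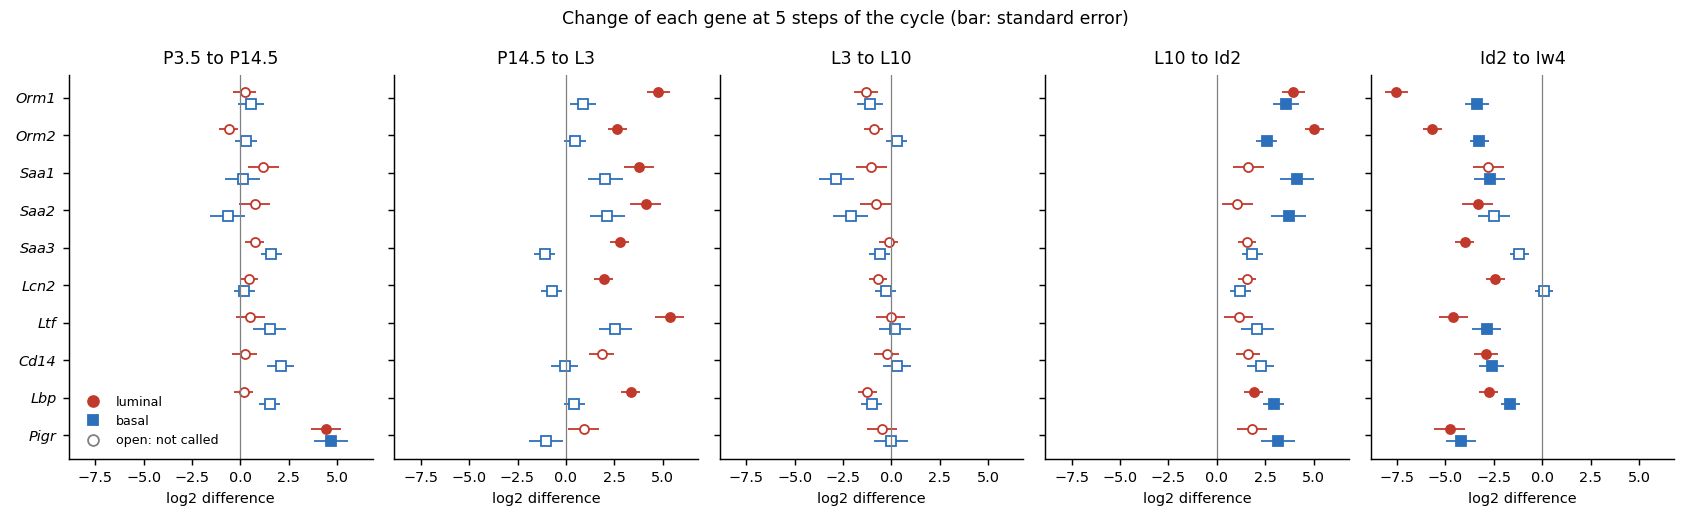
Log2 difference (with SE) of each of the 10 genes at 5 steps of the cycle in luminal (circles) and basal (squares) cells, filled where the difference was called (fold of at least 2, false discovery rate under 0.01). In luminal cells 8 genes are called higher from P14.5 to L3 and 3 from L10 to Id2, and 9 lower from Id2 to Iw4.

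Against the never-pregnant gland all 10 genes were higher in luminal Id2, a comparison within one amplification batch but between lanes. Relative to W10, where 6.23% of all genes were called higher, Orm1 rose by 7.37 ± 0.60 (SE, log2, limma, adjusted p = 4.7e-11), and Orm2 and Pigr both rose by 5.57. Saa3 rose by 5.19, Ltf by 4.88, Saa2 by 4.55, Saa1 by 4.48, Lbp by 3.60 and Cd14 by 2.74. Saa3 had at most 1 read in a luminal W10 library, so its value depends on the added 1 CPM, and edgeR gave 9.12. The smallest difference was that of Lcn2, already abundant at W10, which rose by 1.86 ± 0.47 (limma, adjusted p = 0.0042). That call was lost in 3 of the 6 fits without 1 of the libraries (adjusted p up to 0.038) and with milk proteins left out of the scaling (adjusted p = 0.02), all with limma. With the spread of the compared groups only, the calls of Lcn2 (limma, adjusted p = 0.081), Saa1 (0.038) and Saa2 (0.035) were lost and 7 of the 10 remained. The Cd14 call was lost in 2 of the 6 (limma, adjusted p up to 0.014). Markers of other cells were also called higher from luminal W10 to Id2. They were 8 of 10 macrophage markers (median log2 difference 2.49), 3 of 8 fibroblast and 3 of 6 pericyte markers, S100a8, and Cdh5, Fabp4 and Jchain of the endothelial, adipocyte and lymphocyte lists. The pericyte marker Notch3 was called lower. All 8 milk protein genes were called higher as well. Cd14 is itself made by macrophages, which the Cd11b and Cd45 antibodies of the sort are meant to remove. The part of these cells in the luminal values was not tested. The median over the 10 was 4.72, beside -0.04 over all genes.

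By 4 weeks after weaning most of the genes had fallen. From Id2 to Iw4, 9 of the 10 fell in luminal cells, where 6.12% of genes were called lower, from Lcn2 (-2.42, limma, adjusted p = 0.00027) to Orm1 (-7.54, limma, adjusted p = 2.8e-11). Saa1 was 2.78 lower with an adjusted p of 0.01 (limma), and was called with the sort as a block (limma, adjusted p = 0.0085). The Saa2 call (limma, adjusted p = 0.0026) was lost with edgeR (adjusted p = 0.016). At the same step 6 of 10 macrophage, 3 of 6 pericyte and 2 of 6 adipocyte markers, both lymphocyte markers in the table, the endothelial marker Cdh5 and 4 of 8 milk protein genes were called lower. The part of such cells was not tested. Luminal Orm1 was then at 0.128 to 0.341 CPM, at most 2 reads, and Ltf at 192 to 2192 CPM. The Orm1 difference of -7.54 therefore depends on the added 1 CPM, and edgeR gave -10.1. The comparison of Iw4 with M4, whose libraries were spread over the same batches, asks whether a past pregnancy left a difference. None of the 10 was called in luminal cells, nor was any other gene of the table (0%). In basal cells none was called either, where 0.00586% of genes were. At an unadjusted p under 0.05 limma counted 0 of the 10 in either cell type, and edgeR called 0. The luminal differences ran from -1.63 for Saa2, with an SE of 0.81, to 0.67 for Lbp, with an SE of 0.49, so smaller differences were not detectable with 3 pools per group.

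In basal cells the changes around weaning were as follows. From L10 to Id2, 6 of 10 genes were called higher in the basal fraction, where 5.63% of all genes were: Saa1 by 4.14, Saa2 by 3.72, Orm1 by 3.60, Pigr by 3.19, Lbp by 2.95 and Orm2 by 2.57 (limma, adjusted p from 0.00012 to 0.0069). Saa1 had 5 and 1 reads and Saa2 3 and 0 reads in basal L10, so their fitted folds depend on the added 1 CPM, and edgeR gave 6.31 and 6.83. Without 1 library the Orm2 difference ran from 1.43 to 3.71 and that of Pigr from 1.93 to 4.45 (limma). With edgeR the calls of Orm2 (adjusted p = 0.04) and Pigr (adjusted p = 0.038) were lost and Saa3 was gained (adjusted p = 0.0064). Basal Orm1 was at 1.05 and 0.0950 CPM at L10 and at 28.9, 23.5 and 7.11 CPM at Id2. Basal Saa1 was at 0.437 and 0.0950 CPM at L10 and at 34.4, 18.5 and 14.7 CPM at Id2. The basal markers summed to 885, 14436 and 887 CPM in those Id2 libraries, and their part in the difference was not tested. With replicate 4 as the only basal Id2 library fewer of the 10 and of all genes were called. The log2 differences were then 4.03 for Orm1, 3.96 for Saa1, 3.41 for Pigr, 3.22 for Saa2, 2.94 for Lbp and 2.92 for Orm2. Without basal L10 replicate 6, which leaves 1 library at L10, none was called by limma, and 6 had an unadjusted p under 0.05. Fewer of all genes were called in that fit too. In the main fit all 8 basal markers were called lower and 3 of 8 fibroblast markers higher at this step. With the spread of the compared groups only, limma called 0 of the 17078 genes, and 7 of the 10 had an unadjusted p under 0.05. Relative to basal W10, 9 of 10 were called higher, where 8.78% of genes were. Fewer of the 10 and of all genes were called with replicate 4 alone. There the log2 differences of Saa1 and Saa2 were 3.24 and 2.60, against 3.42 and 3.09 with all 3 libraries. Without basal W10 replicate 6, 4 of the 10 were called, and with the spread of the compared groups only also 4. In those fits 2255 and 467 of all genes were called in either direction, against 2965 in the main fit. From basal W10 to Id2 all 8 milk protein genes, 6 of 8 fibroblast, 6 of 8 endothelial, 6 of 6 pericyte and 4 of 10 macrophage markers were called higher and all 8 basal markers lower, and the part of such cells was not tested. Saa3 is one of the 9 but is at 0 in all basal W10 libraries and at 2.03 to 4.17 CPM in basal Id2, so its fold is not given. The exception was Lcn2, at 4683, 3140.4 and 1812 CPM in basal W10 and 2740.3, 2165 and 549 CPM in basal Id2 (log2 difference -1.01, limma, adjusted p = 0.11). By Iw4, 7 of the 10 were called lower than at basal Id2, where 9.27% of genes were, and fewer with replicate 4 alone. Fits with edgeR and with an added 0.1 CPM each called 5. Leaving milk proteins out of the scaling called 3, while 3881 of all genes were called in either direction, against 2974 in the main fit. At the same step 5 of 8 fibroblast, 6 of 8 endothelial and 6 of 6 pericyte markers and 4 of 8 milk protein genes were called lower and 7 of 8 basal markers higher. Leaving out basal Id2 replicate 2 or basal Iw4 replicate 6 left 3, and leaving out basal Id2 replicate 4 left 4. Early in pregnancy Ltf fell in basal cells, from 139, 154 and 61.8 CPM at W10 to 7.97, 22.8 and 10.5 CPM at P3.5 (-3.04, limma, adjusted p = 0.0045), where 1.79% of genes were called lower. It was the 1 gene of the 10 called at that step, with 2 called under the sort block, and the call was lost in 4 of the 6 fits without 1 of the libraries (limma, adjusted p up to 0.029).

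Whether the cell types differed in their response to weaning was tested directly. For none of the 10 did the L10 to Id2 change in basal cells differ from that in luminal cells at the threshold, where 3.73% of all genes did in either direction. Of the 10, 3 had an unadjusted p under 0.05 (limma), and edgeR called 0. With replicate 4 as the only basal Id2 library none was called by limma. The difference was -2.47 for Orm2, a smaller basal change (limma, adjusted p = 0.028). Without 1 library it ran from -3.61 to -1.32 and was called in 2 of 11 fits, those without luminal or basal L10 replicate 6 (limma, lowest adjusted p = 0.005). It was 2.65 for Saa2 (limma, adjusted p = 0.16) and 2.52 for Saa1 (limma, adjusted p = 0.18), larger basal changes that were 6.21 and 5.06 with edgeR and rest on the few basal L10 reads.

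Luminal cells held the higher level at every time point where a difference was called. Over 8 time points and 10 genes, 43 of 80 comparisons of luminal with basal libraries were called, 43 with luminal and 0 with basal higher (49 and 0 with the sort as a block). All 10 genes were called at L3 and at Id2 and 9 at L10, where 9.87%, 9.39% and 10.9% of all genes were called higher in luminal cells. With edgeR the calls of Orm2 at L3 (adjusted p = 0.034) and Saa2 at Id2 (adjusted p = 0.014) were lost, and an added 0.1 CPM also left 9 at each. Without basal replicate 6, 8 were called at Id2. In that fit 3175 of all genes were called in either direction, against 3690 with all libraries. Fewer of the 10 and of all genes were called at Id2 with basal replicate 4 alone and at L10 with basal replicate 5 alone. The basal Id2 group includes replicates 2 and 6, whose basal markers summed to only 885 and 887 CPM. Their part in the Id2 calls was not tested. At L3 and Id2 the luminal values of all 10 lay above all basal values, as did those of 17.1% and 17.6% of all genes, with basal above luminal for 23.4% and 19% of genes. The exception at L10 was Orm2, at 1.06, 2.97 and 7.68 CPM in luminal and 4.80 and 0.190 CPM in basal libraries. Outside lactation and early involution fewer were called: 2 at W10 (Cd14 and Pigr), 4 at M4 and 4 at P3.5, 1 at P14.5 (Pigr) and 3 at Iw4, beside 5.12%, 4.24%, 4.64%, 3.39% and 3.75% of all genes. At P3.5 the count was 3 or 4 without any 1 library, while the other smaller counts changed more. Without basal replicate 6, none was called at W10 or at Iw4. Without luminal replicate 3, 1 was called at W10 and 1 at Iw4, and 1 was called at M4 without luminal replicate 6 or basal replicate 2. The sort block gave 4 at W10 and 5 at Iw4. The 1 call at P14.5 was lost without luminal replicate 2 or basal replicate 3.

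Before milk secretion Lcn2 had the highest median basal share of the genes with at least 30 luminal reads. Within a sort, its basal level was 29.8%, 51.8% and 152% of the luminal level at W10 and 45.1% to 79.6% at P3.5. It was 6.65% to 10.7% at L3 and 3.63% to 13.0% at Id2. The basal Lcn2 level at L3, 812, 573 and 1020.0 CPM, lay below the W10 values of 4683, 3140.4 and 1812 CPM, while the luminal level lay above its own. The basal share of Lbp was 24.4% to 60.1% at W10, 13.3% to 20.7% at P3.5, 5.08% to 8.22% at L3. At Id2 it was 6.30% in replicate 6, 12.9% in replicate 4 and 42.3% in replicate 2, and only replicate 2, the library with endothelial markers, lay in the W10 range. For comparison, luminal transcripts in the basal fraction were measured the same way. The milk protein gene Csn2 stood at 2.23% to 2.88% of the luminal level at L3 and 2.90% to 13.2% at Id2, and the luminal keratin gene Krt18 at 4.02% to 10.6% and 5.44% to 14.5%. Over 8 luminal reference genes (Csn2, Csn3, Wap, Lalba, Krt18, Krt8, Epcam and Elf5) the Id2 shares ran from 6.87% to 14.5% in replicate 2, from 10.8% to 16.4% in replicate 4 and from 2.79% to 7.17% in replicate 6. Of the 10 genes, 6, 8 and 8 lay within the range of their own sort. Above it were Cd14 (33.6%) and Lbp in replicate 2 and Orm2 (10.2%) and Saa3 (10.8%) in replicate 6. Below it were Saa1 (6.79%) and Saa3 (3.11%) in replicate 2 and Saa1 (10.2%) and Ltf (9.83%) in replicate 4. In replicate 4, the Id2 library nearest the other basal groups, Cd14 stood at 15.9%, inside the range. The part that luminal RNA or cells had in the basal values was not tested. At W10 the highest reference gene of the sort stood at 45.6% in replicate 3, 31.9% in replicate 5 and 10.9% in replicate 6. Lcn2 (152%, 51.8% and 29.8% in the same order) and Lbp (60.1%, 48.4% and 24.4%) lay above it in every one of these sorts. Lcn2 also lay above every reference gene in each sort of M4, P3.5, P14.5 and Iw4.

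**Figure D4:**
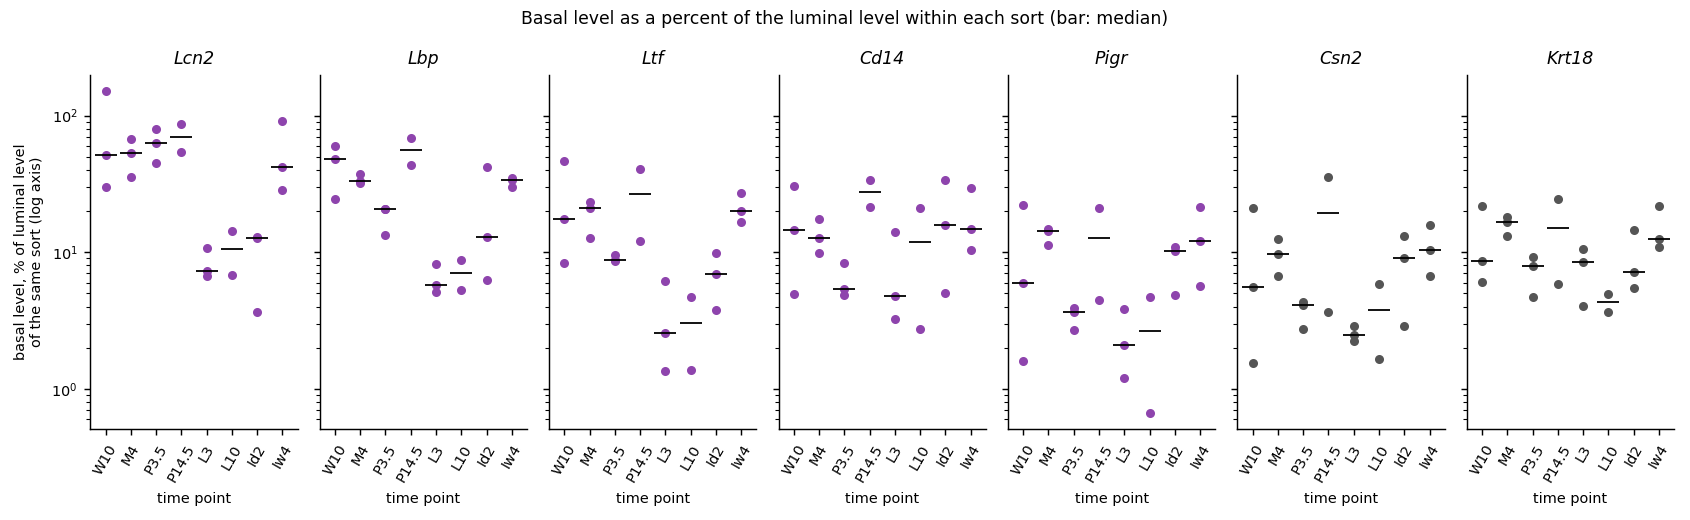
Basal level as a percent of the luminal level of the same sort (log axis) for Lcn2, Lbp, Ltf, Cd14 and Pigr and for the luminal reference genes Csn2 and Krt18, by time point, a point per sort with at least 30 luminal reads and a bar at the median. Lcn2 lies between 29.8% and 152% at W10 and between 3.63% and 13.0% at Id2.

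Other genes of the same classes were counted from lists of known acute phase and milk proteins. Of 25 other acute phase genes in the table, 4 rose and 1 fell from luminal P14.5 to L3, where 3.19% of all genes were called higher. From L10 to Id2 1 rose and 1 fell, where 2.15% of all genes were called higher, so this count is near the background. From W10 to Id2, where 6.23% were, 5 rose and 1 fell (limma). The L10 to Id2 riser was Cp, the copper-binding ferroxidase ceruloplasmin, at 849, 1151 and 1240.4 CPM at L10 and 4031, 4508 and 5517 CPM at Id2 (2.12, limma, adjusted p = 0.00027). A2m, a protease inhibitor, was the one called lower, at 2.66, 14.2 and 27.0 CPM at L10 and 0, 0.374 and 0.610 CPM at Id2. From L10 to Id2 the list's median log2 difference was 0.13, beside 1.62 over the 10 genes and -0.01 over all genes. Of 23 other milk defence genes, 6 rose and 1 fell from P14.5 to L3, 1 rose from L10 to Id2, again near the background share, and 14 rose and none fell from W10 to Id2 (limma). The riser at weaning was Jchain, which joins polymeric immunoglobulins (2.50, limma, adjusted p = 0.0084). Jchain is also a marker of antibody-secreting cells, and in luminal Id2 it was at 0.593 CPM in replicate 2, 29.4 CPM in replicate 4 and 17.3 CPM in replicate 6. At that step the list's median was 0.24 on the log2 scale.

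Of 29 genes of the cytokine and Toll-like receptor pathways that are known to induce acute phase proteins, 5 rose from luminal P14.5 to L3 and 2 from L10 to Id2, and none fell, beside the same shares of all genes. From W10 to Id2 7 rose and 2 fell (limma). At L3 these were Socs3, the feedback inhibitor of STAT3 signalling, Cebpd, a C/EBP factor, and Nfkbiz, Lifr and Tnfrsf1a. Socs3 was at 18.1, 21.0 and 56.6 CPM in luminal P14.5 and 189.8, 218 and 683 CPM in luminal L3 (3.40). At Id2 they were Il6, at 1.73, 6.13 and 16.2 CPM in luminal L10 and 47.8, 60.6 and 70.0 CPM in luminal Id2 (3.11, limma, adjusted p = 0.0012), and Tlr2, a receptor for bacterial lipoproteins, at 36.3, 54.4 and 59.5 CPM and 181, 189.9 and 271 CPM (2.08, limma, adjusted p = 0.0046). Il6 was called lower in luminal than in basal cells at every time point. In basal Id2 it was at 760.0, 1511 and 2489 CPM, and the luminal minus basal difference there was -4.57 (limma, adjusted p = 6.3e-07). From basal L10 to Id2, 3 of the 29 were called higher (Lif, Tlr4 and Jak1) and 1 lower (Irf1), where 5.63% of all genes were called higher. Basal Tlr4 went from 3.51 and 12.1 CPM at L10 to 29.0, 49.4 and 113 CPM at Id2 (2.85, limma, adjusted p = 1.8e-05). The basal Id2 libraries behind these Il6 and Tlr4 values are those that held fibroblast and endothelial markers, whose part was not tested. Of 11 receptors and partners of the proteins themselves, Tlr2 was called higher and Lrp2 lower from luminal L10 to Id2. Slc22a17, a lipocalin-2 receptor, had a median of 12.8 CPM at L10 and 5.49 CPM at Id2 (-0.65, limma, adjusted p = 0.32), and Lrp2, an endocytic receptor of many ligands, was at 2.13, 39.4 and 41.8 CPM at L10 and 0, 0 and 0.198 CPM at Id2. The 8 casein and other milk protein genes had a median log2 difference of 0.75 from luminal L10 to Id2.

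Likeness of pattern was described over the 16 group means of log2(CPM + 1), among 10580 genes with a mean of at least 5 CPM. The points share libraries and sorts, and the luminal to basal contrast is part of every correlation. The 45 pairs of the 10 genes had Pearson's r of 0.643 to 0.988, with a median of 0.825. The nearest genes outside the 10 were Slc16a9 for Orm1 (r = 0.960), Ctsb, which encodes the lysosomal protease cathepsin B, for Orm2 (0.970), Wfdc3 for Saa1 (0.966), Saa2 (0.957) and Lbp (0.970), and Clca2 for Saa3 (0.963). For Lcn2 it was the ATP receptor gene P2rx4 (0.969), for Ltf the chemokine gene Cxcl2 (0.951), for Cd14 the secreted chaperone gene Clu (0.981), and for Pigr the casein gene Csn1s1 (0.980).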

How the data were processed

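RNA of sorted luminal and basal mammary cells had been amplified and sequenced. Alignment by the authors used GSNAP and mm9, and HTSeq gave counts per gene, which they normalised with edgeR after dropping genes below 1 CPM in 3 samples and genes of very high, even counts. The deposited signal is CPM on edgeR's effective library size. Every value was a whole multiple of a per-library step (100% within 0.01 of a whole read), so reads were recovered. All 46 columns were used (0 unmapped). The basal P14.5 replicate 2 library, which the authors set aside, was not analysed here.

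log2(CPM + 1) values were fitted with limma 3.58.1 in R 4.3.3 (trend, a mean for each of 16 groups, all 46 libraries), with Benjamini-Hochberg adjustment over 17078 genes and calls at a fold of 2 and FDR 0.01, and with edgeR 4.0.16 (quasi-likelihood) on the recovered reads. Scripts were tested on simulated data. Gene symbols and GRCm38 coordinates came from GENCODE and RefSeq tables, not the build used for counting: 16897 identifiers matched and 181 did not. The alternatives were the sort as a block, edgeR, another pseudocount, filter, FDR and scaling, the spread of the compared groups alone, and each library left out.

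Luminal and basal libraries of a number came from one sort. Over 22 such pairs the deviations from group means had a median correlation of 0.25, and limma's consensus correlation was 0.179. P-values measure the spread between pools. Floors cover counting error only, since amplified reads are not independent molecules.

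The members and lists were chosen with earlier results of these data known. Named are the 10 genes, the list genes called from luminal L10 to Id2 (up to 4 of a list by size), direct partners, and the nearest genes by correlation. Others named for a count of 5 or fewer were chosen after their values were seen.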

Additional observations from a re-analysis of the deposited data

How the results depend on the processing

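No value called in one fit changed sign in another. Values that were not called did: of 250 gene and comparison pairs, 8 had the other sign with edgeR (the basal minus luminal change of Orm1 was -0.35 with limma and 1.45 with edgeR), 7 with milk proteins left out of the scaling and 3 at an added 0.1 CPM, as did 85 of 1490 values without 1 library. Of 544 values of single genes under the alternatives that keep every library or replace the basal Id2 group, 498 kept their side of the threshold, 35 lost a call and 11 gained one, and of 412 without 1 library 361 kept theirs, 44 lost it and 7 gained it. Estimating the spread from the compared groups only gave 0 calls for luminal L10 to Id2 (3 otherwise), 7 for luminal W10 to Id2 (10), 0 for basal L10 to Id2 (6) and 4 for basal W10 to Id2 (9). Over all genes, in the same order, it called 0 (779), 459 (1771), 0 (2274) and 467 (2965) in either direction. An FDR under 0.05 gave 5 for luminal L10 to Id2, 1 for the basal minus luminal change (0), 3 for basal W10 to P3.5 (1) and 1 for basal P14.5 to L3 (0). Over all genes, in the same order, this FDR called 1456 (779), 1689 (637), 1783 (1154) and 1500 (665). For luminal against basal it gave 4 at W10 (2), 5 at P14.5 (1) and 6 at Iw4 (3), with 3229 (2429), 3197 (2208) and 2738 (1970) over all genes. At P14.5 edgeR gave 0 and an added 0.1 CPM gave 2. edgeR gave 2 for basal P3.5 to P14.5 (1), with 417 (622) over all genes. A mean of at least 5 CPM gave 2 for basal W10 to P3.5. Leaving milk proteins out of the scaling gave 3 for basal Id2 to Iw4 (7) and moved the median of all genes by -0.35 for luminal W10 to Id2 and 0.43 for luminal Id2 to Iw4, on the log2 scale. Replicate 4 as the only basal Id2 library was chosen after the data were seen. It gave fewer calls from basal L10 to Id2 and from basal Id2 to Iw4, among the 10 and among all genes. With the replicate block the luminal against basal calls were 49 (43), basal W10 to P3.5 gave 2, and luminal Saa1 from Id2 to Iw4 was gained. It moved no other count of the 10 genes by more than 1.5 times, except luminal against basal at W10 (4 against 2) and Iw4 (5 against 3), and of the counts over all genes it moved that of the basal minus luminal change, from 637 to 1086. The cause of these differences was not tested. Without 1 library at a time, calls ranged from 7 to 8 for luminal P14.5 to L3, 2 to 3 for luminal L10 to Id2, 8 to 10 for luminal W10 to Id2, 8 to 9 for luminal Id2 to Iw4, 0 to 8 for basal L10 to Id2 (0 without basal L10 replicate 6), 4 to 9 for basal W10 to Id2 (4 without basal W10 replicate 6), 0 to 2 for basal W10 to P3.5, 3 to 6 for basal Id2 to Iw4, 0 to 1 for the basal minus luminal change (1 without L10 replicate 6 of either cell type) and 40 to 44 for luminal against basal. The count was 1 in every such fit from P3.5 to P14.5, which was Pigr in luminal cells, but without basal P14.5 replicate 5 the basal call was Saa3 and not Pigr, and it was 0 in every such fit for M4 to Iw4. A lone library left in a group was assumed to vary like the others. In luminal L3 replicate 6, 3 reads stand for 1.05 CPM, so values under about 1 CPM rest on fewer than 3 reads there. In every other library 3 reads stand for at most 0.620 CPM.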
